A study of Rattus norvegicus with 20 samples.

Results

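The genes described here are 10 sensors and kinases of the unfolded protein response and of eIF2 signalling: the eIF2 kinases Eif2ak1, Eif2ak2, Eif2ak3 and Eif2ak4, their substrate Eif2s1, and the endoplasmic reticulum sensors and transcription factors Ern1, Xbp1, Atf6, Atf6b and Creb3. They were taken by symbol from the deposited table of gene counts, where all 10 were found among 17337 symbols. Of these, 9 had enough counts to be tested, as did 8320 symbols in all, and Ern1 did not. The data come from QuantSeq forward libraries, which take 1 fragment per transcript near its 3' end, of primary rat alveolar epithelial cells: 20 libraries, 5 in each of 4 groups. Type II cells of Sprague-Dawley rats were cultured for 4 days on silastic membranes coated with fibronectin, where they formed monolayers described as type I-like. A library stands for 1 animal, whose RNA came from 4 monolayers combined as technical replicates, and the replicate numbers 1 to 5 name the same animals in every group. Stretched cells (S) were kept in 0.01% DMSO for 18 h and then cyclically stretched in both directions for 6 h, at 15 cycles per min and a 25% change of surface area. Unstretched cells (NS) were kept in 0.01% DMSO for 24 h. Stretched cells with inhibitor (S_PI) were kept for 18 h in 1 µM GSK2606414, an inhibitor of PERK, and then stretched for 6 h in the same way. Unstretched cells with inhibitor (NS_PI) received 1 µM GSK2606414, for 18 h by the series text and 24 h by the protocol. The DMSO content of the inhibitor groups is not given in the sources used here.

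When unfolded proteins gather in the endoplasmic reticulum, they are sensed by PERK (gene Eif2ak3), IRE1 alpha (Ern1) and ATF6 in its membrane. PERK shares its substrate, the alpha subunit of the translation factor eIF2 (Eif2s1), with 3 further kinases: HRI (Eif2ak1), which responds to low haem and to mitochondrial stress; PKR (Eif2ak2), which responds to double-stranded RNA; and GCN2 (Eif2ak4), which responds to lack of amino acids. Phosphorylated eIF2 alpha slows most translation and favours that of ATF4, while IRE1 splices the Xbp1 messenger RNA and ATF6 is cut in the Golgi to release a transcription factor. These steps act on proteins or on splicing, so 3' counts show the amount of each messenger RNA and neither kinase activity nor Xbp1 splicing.

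Gene counts ranged from 999209 to 3131541 per library, with a median of 1802644, and a count of 3 equalled 1.07 to 3.05 CPM (counts brought to 1 shared library size with TMM, which takes most genes as not changed). Libraries of the same animal deviated together (30 of 30 pairs with a correlation above 0.1), so the animal was a block in the fit. The S library of animal 1 had the lowest median correlation with the rest of its group, 0.866, against 0.894 to 0.953 for the other 19, and results that turn on it are given without it too. Animal 1 was also the lowest of its group in NS (0.894), S_PI (0.900) and NS_PI (0.920). Of the type I markers, Pdpn averaged 1827 CPM and Ager 499.7 CPM over the 20 libraries, whereas Aqp5, at 3.03 CPM, and Rtkn2, at 0.491 CPM, were below the filter on low counts. In S against NS 1044 genes were higher and 1031 lower, and in S_PI against NS_PI 1263 were higher and 1271 lower. These splits depend on the scaling: with library size alone, which put the median log2 fold change of all genes at -0.12 in both comparisons, where TMM put it at -0.01 in S against NS and at -0.02 in S_PI against NS_PI, 722 genes were higher and 1425 lower in S than in NS, and 957 higher and 1677 lower in S_PI than in NS_PI. Upper-quartile scaling gave 854 higher and 1233 lower in S against NS, and 1030 higher and 1612 lower in S_PI against NS_PI.

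Over the 20 libraries Xbp1 had the highest mean level of the 10 genes, 232 CPM, followed by Eif2ak3 at 158 CPM, Creb3 at 147 CPM, Atf6b at 145 CPM and Eif2s1 at 105 CPM. Eif2ak2 averaged 72.5 CPM, Eif2ak4 46.1 CPM, Eif2ak1 41.7 CPM, Atf6 24.0 CPM and Ern1 0.656 CPM. CPM here is a level of 3' tags, 1 per transcript and not divided by length. The ranges of the 4 group means overlapped between Xbp1 and Eif2ak3, between Eif2ak3 and Creb3, between Creb3 and Atf6b, and between Eif2ak4 and Eif2ak1, so these neighbours are not ordered beyond their spread. Compared within groups, Xbp1 had a higher mean than Eif2ak3 in 4 of 4 groups and a higher level in 15 of 20 libraries. In S_PI their means were close, 231 and 228 CPM. The plot of levels by library shows the spread between animals, which for Creb3 comes mainly from animal 1.

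**Figure D1:**
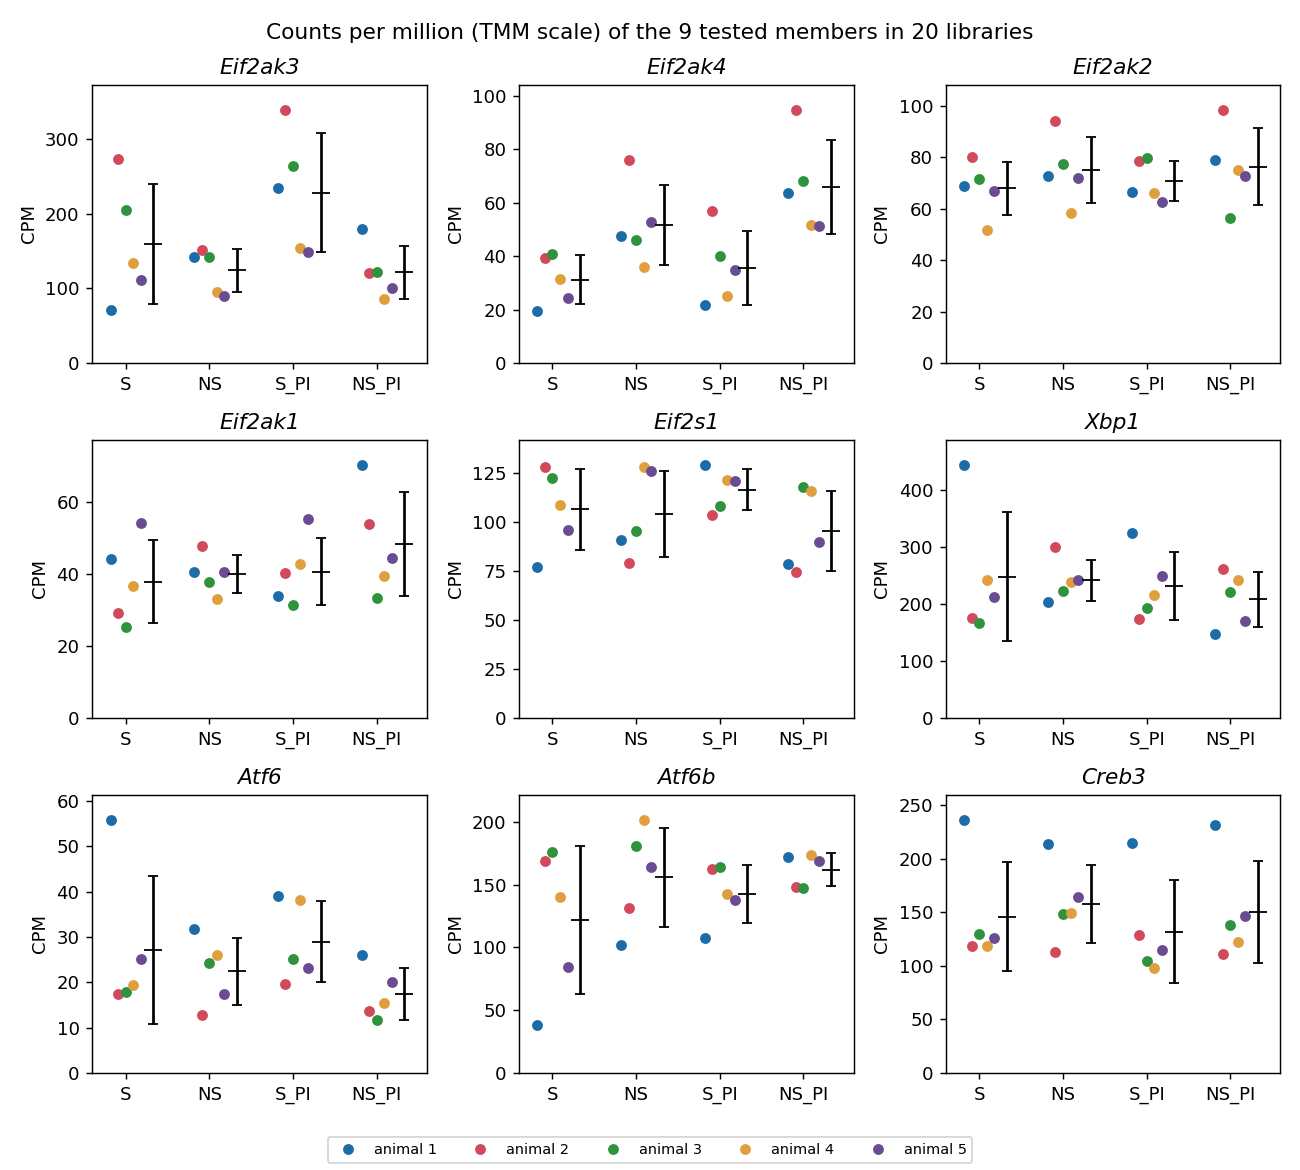
CPM on the TMM scale (vertical axis, linear from 0) of the 9 tested genes in the S, NS, S_PI and NS_PI groups (horizontal axis). Each point is 1 library, coloured by animal, and the bar is the mean ± SD of 5 libraries; Eif2ak4 averages 31.1 CPM in S and 51.6 CPM in NS, and Creb3 is highest in animal 1 in every group.

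GCN2 was the kinase whose messenger RNA fell with stretch both without and with the inhibitor. Eif2ak4 had 19.6, 39.3, 40.8, 31.5 and 24.5 CPM in the S libraries of animals 1 to 5, against 47.5, 76.0, 45.9, 35.9 and 52.6 CPM in the NS libraries of the same animals. Every S library lay below the NS library of its own animal, as 27.1% of all genes kept 1 direction in all 5 animals, though the ranges of the groups overlapped. The mean was 31.1 ± 9.17 CPM in S and 51.6 ± 14.9 CPM in NS (SD, n = 5 each), a log2 fold change of -0.75 ± 0.18 (SE, 95% interval -1.12 to -0.39, adjusted p = 0.00415, edgeR quasi-likelihood F test, two-sided, Benjamini-Hochberg over 8320 genes). With inhibitor the values were 21.8, 56.7, 40.2, 25.2 and 34.8 CPM in S_PI, against 63.7, 94.6, 68.0, 51.6 and 51.2 CPM in NS_PI. Here too Eif2ak4 was lower with stretch in 5 of 5 animals, where 36.3% of all genes kept 1 direction, with -0.91 ± 0.17 on the log2 scale (SE, 95% interval -1.27 to -0.56, adjusted p = 0.000499, edgeR). In a fit without the animal as a block the call of S against NS was lost (log2 fold change -0.73, adjusted p = 0.0946), while that of S_PI against NS_PI held in all 12 alternatives. Without the S library of animal 1 the log2 fold change of S against NS was -0.65 (adjusted p = 0.0147).

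PERK's own messenger RNA rose with stretch in the presence of its inhibitor. Eif2ak3 had 235, 339, 264, 155 and 149 CPM in the S_PI libraries of animals 1 to 5, against 179, 120.0, 122, 86.4 and 100.3 CPM in NS_PI. All 5 animals were higher with stretch, and the group ranges overlapped through animal 1 of NS_PI. The mean was 228 ± 79.2 CPM in S_PI and 122 ± 35.4 CPM in NS_PI (SD, n = 5 each), a log2 fold change of 0.85 ± 0.22 (SE, 95% interval 0.40 to 1.31, adjusted p = 0.00565, edgeR). This call was lost narrowly without the animal block (log2 fold change 0.91, adjusted p = 0.0521).

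Without inhibitor Eif2ak3 had 71.4, 273, 205, 134 and 111 CPM in S, against 142, 151, 141, 95.4 and 90.0 CPM in NS. It was higher with stretch in animals 2 to 5 and lower in animal 1. The log2 fold change of 0.32 ± 0.22 (SE, 95% interval -0.13 to 0.78) did not pass the test (adjusted p = 0.295, edgeR). The value depends on which libraries are kept. Without the S library of animal 1, left out after seeing the data, it was 0.60 (adjusted p = 0.00826, edgeR). Without animal 1 in every group it was 0.58 (adjusted p = 0.00779, edgeR). With libraries left out the log2 fold change ranged from 0.17 to 0.60, and Eif2ak3 was called in 2 of 13 alternatives. The S library of animal 1 had the lowest correlation with its group of all libraries, and animal 1 was also the lowest in each other group. What set animal 1 apart was not tested.

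The promoter windows of these 2 kinase genes are shown because, with inhibitor, Eif2ak3 rose and Eif2ak4 fell with stretch. They run 5′ to 3′ from 250 bases before to 50 bases after the transcription start, from RefSeq, build GRCr8, both on the + strand.
Eif2ak3, chr4:104363622-104363921: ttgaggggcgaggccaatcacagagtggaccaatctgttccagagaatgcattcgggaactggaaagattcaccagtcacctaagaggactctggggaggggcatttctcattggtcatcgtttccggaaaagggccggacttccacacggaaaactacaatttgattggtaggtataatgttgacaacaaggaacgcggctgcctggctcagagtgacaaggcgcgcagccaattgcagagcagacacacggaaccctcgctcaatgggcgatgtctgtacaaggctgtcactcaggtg
Eif2ak4, chr3:125809957-125810256: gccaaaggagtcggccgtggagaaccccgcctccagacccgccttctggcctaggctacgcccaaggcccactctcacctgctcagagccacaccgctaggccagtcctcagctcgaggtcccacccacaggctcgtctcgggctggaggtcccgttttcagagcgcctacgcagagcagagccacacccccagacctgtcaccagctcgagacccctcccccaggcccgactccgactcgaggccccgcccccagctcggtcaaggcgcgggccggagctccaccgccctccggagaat
Neither window held any of the 4 stress-response motifs searched on both strands: the endoplasmic reticulum stress element ERSE (CCAAT and CCACG with a spacer of 9 bases of any kind), the UPRE core (TGACGTGG), the cAMP response element CRE (TGACGTCA) and the ATF4 composite element (TGATGNAA). Of 33469 RefSeq windows of this length, 0.0657% held the ERSE, 0.595% the UPRE core, 1.83% the CRE and 3.98% the ATF4 element.

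The remaining kinases did not pass the test in any comparison. PKR (Eif2ak2) averaged 67.9 ± 10.3 CPM in S and 75.0 ± 12.9 CPM in NS, and 70.8 ± 7.90 CPM in S_PI and 76.4 ± 15.0 CPM in NS_PI (SD, n = 5 each). Its log2 fold changes were -0.14 ± 0.13 for S against NS and -0.11 ± 0.13 for S_PI against NS_PI (SE), and it was lower with stretch in 5 of 5 animals without inhibitor and in 4 of 5 with it. HRI (Eif2ak1) averaged 37.9 ± 11.6 CPM in S and 40.0 ± 5.40 CPM in NS, and 40.7 ± 9.32 CPM in S_PI and 48.3 ± 14.4 CPM in NS_PI. Its log2 fold changes were -0.12 ± 0.19 and -0.25 ± 0.19 (SE), with 3 of 5 animals higher in S and 2 of 5 higher in S_PI. In the RefSeq gene table Eif2ak1 overlaps Aimp2 and Ankrd61, Eif2ak2 overlaps 2 other genes and Ern1 1, and since the strand setting of the counting is not given in the sources used here, reads of overlapping genes cannot be told apart.

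Set against each other, GCN2 held a smaller share of the messages of the 4 eIF2 kinases in stretched than in unstretched libraries. Eif2ak4 made up 10.5 ± 1.48% of the kinases' counts in S (9.31 to 12.4%) and 17.6 ± 2.72% in NS (15.2 to 20.6%). With inhibitor its share was 9.41 ± 2.16% in S_PI (6.10 to 11.5%) and 21.2 ± 3.89% in NS_PI (16.3 to 25.8%; SD, n = 5 each). The shares of stretched and unstretched libraries did not overlap, either without or with inhibitor. Eif2ak3 made up 59.6 ± 7.62% in S_PI (49.4 to 65.8%) and 38.7 ± 5.73% in NS_PI (32.7 to 45.7%), which did not overlap either. Its share was 51.1 ± 12.1% in S and 42.5 ± 4.80% in NS, which did. In CPM the stretched and unstretched groups of Eif2ak4 and of Eif2ak3 overlapped. The 4 shares of a library add up to the whole, so a larger Eif2ak3 share leaves less for Eif2ak4. How often shares of other genes separate in this way was not computed. The shares were computed from the same counts as the tests above and are a description, with no test of their own.

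**Figure D2:**
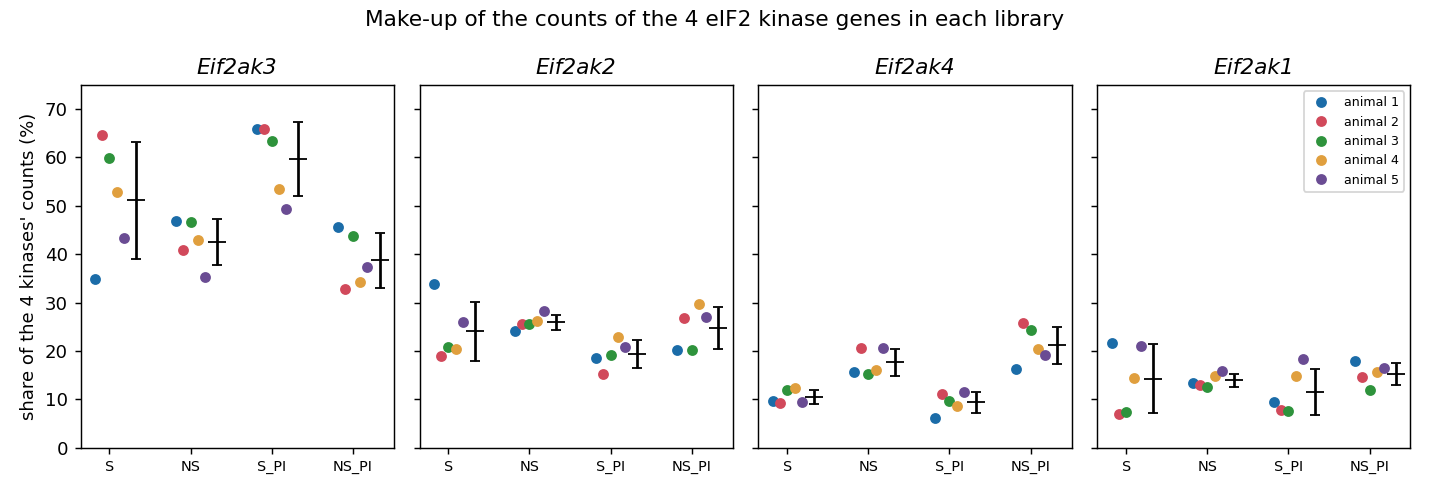
Share of each eIF2 kinase gene in the summed counts of the 4 kinases, in percent, by group, one panel per gene, with S left of NS and S_PI left of NS_PI. Points are libraries, coloured by animal, and bars are the mean ± SD of 5 libraries. The Eif2ak4 share averages 10.5% in S and 17.6% in NS, and 9.41% in S_PI and 21.2% in NS_PI.

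The substrate of all 4 kinases did not pass the test in any comparison. Eif2s1, the alpha subunit of eIF2, averaged 106 ± 20.7 CPM in S and 104 ± 21.9 CPM in NS, and 116 ± 10.4 CPM in S_PI and 95.3 ± 20.3 CPM in NS_PI (SD, n = 5 each). The log2 fold change was 0.05 ± 0.16 for S against NS (SE, 95% interval -0.28 to 0.39) and 0.31 ± 0.16 for S_PI against NS_PI (-0.02 to 0.64, adjusted p = 0.144, edgeR). With inhibitor 4 of 5 animals were higher with stretch.

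Ern1, the gene of IRE1 alpha, was too low to test. It had 0, 4, 1, 0 and 3 counts in the S libraries of animals 1 to 5, against 1, 1, 0, 1 and 2 counts in NS. In S_PI it had 3, 2, 4, 0 and 0 counts, against 0, 3, 0, 0 and 0 counts in NS_PI. It thus gave 25 counts over the 20 libraries, with 9 libraries at 0 and 18 at or under the floor of 3 counts. A difference between groups was not detectable with so few counts.

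Xbp1, the transcription factor whose message IRE1 splices, had the highest mean level of the 10, not ordered from Eif2ak3 beyond the spread, and did not pass the test with stretch. It had 444, 176, 167, 242 and 212 CPM in S, against 204, 299.97, 222, 239 and 242 CPM in NS. With inhibitor it had 325, 173, 194, 216 and 249 CPM in S_PI, against 147, 261, 221, 242 and 170.1 CPM in NS_PI. Animal 1 was far higher with stretch, animals 2 and 3 were lower both without and with inhibitor, and the groups overlapped. The log2 fold change was -0.02 ± 0.23 for S against NS (SE, 95% interval -0.49 to 0.45) and 0.11 ± 0.23 for S_PI against NS_PI (-0.36 to 0.58). Without animal 1 the second was -0.12, and without the S library of animal 1 the first was -0.27 (adjusted p = 0.334, edgeR).

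The promoter window of Xbp1 is shown because it alone, of the 8 genes with a window in the table, held a motif searched for. It runs 5′ to 3′ on the + strand, from 250 bases before to 50 after the start (RefSeq, GRCr8), with the ERSE in capitals, whose first base lies 65 bases before the start.
Xbp1, chr14:84604373-84604672: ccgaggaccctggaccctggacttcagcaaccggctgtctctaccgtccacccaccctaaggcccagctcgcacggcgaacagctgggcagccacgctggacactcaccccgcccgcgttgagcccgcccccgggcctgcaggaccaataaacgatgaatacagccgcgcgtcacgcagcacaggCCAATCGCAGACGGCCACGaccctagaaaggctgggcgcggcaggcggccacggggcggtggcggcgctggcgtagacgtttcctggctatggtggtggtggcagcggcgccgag
The ERSE stood in 22 of 33469 windows (0.0657%). A match in the sequence is a description and says nothing of binding in these cells.

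The message of ATF6, the sensor cut in the Golgi, rose with stretch in the presence of the inhibitor. Atf6 had 39.0, 19.5, 25.1, 38.1 and 23.2 CPM in the S_PI libraries of animals 1 to 5, against 26.1, 13.8, 11.6, 15.3 and 20.1 CPM in NS_PI. All 5 animals were higher with stretch, and the ranges overlapped. The mean was 29.0 ± 8.96 CPM in S_PI and 17.4 ± 5.77 CPM in NS_PI (SD, n = 5 each), a log2 fold change of 0.74 ± 0.21 (SE, 95% interval 0.30 to 1.19, adjusted p = 0.0115, edgeR). This call rests on animal 4 and on the animal block: without animal 4 the log2 fold change was 0.59 (adjusted p = 0.0758), and without the block 0.74 (adjusted p = 0.153). Without inhibitor Atf6 had 55.8, 17.5, 17.9, 19.3 and 25.1 CPM in S, against 31.8, 12.8, 24.2, 25.9 and 17.4 CPM in NS. It was higher in S in animals 1, 2 and 5, with a log2 fold change of 0.25 ± 0.21 (SE, adjusted p = 0.402, edgeR), and 0.059 without the S library of animal 1. Atf6 overlaps 2 other genes in the RefSeq table and Atf6b 1.

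Its relatives did not pass the test. Atf6b, a paralog of Atf6 that is cut in the same way, averaged 122 ± 59.0 CPM in S and 156 ± 39.7 CPM in NS, and 143 ± 23.0 CPM in S_PI and 162 ± 13.2 CPM in NS_PI (SD, n = 5 each). Its log2 fold change was -0.41 ± 0.23 for S against NS (SE, 95% interval -0.89 to 0.06, adjusted p = 0.192, edgeR), lower in 4 of 5 animals, and the lowest library, with 38.2 CPM, was S of animal 1, without which the log2 fold change was -0.17. Creb3, a membrane-bound bZIP transcription factor, averaged 146 ± 50.7 CPM in S and 158 ± 36.5 CPM in NS, and 132 ± 47.8 CPM in S_PI and 150.2 ± 47.6 CPM in NS_PI. Its spread was mostly between animals: animal 1 had 236 CPM in S, 214 CPM in NS, 215 CPM in S_PI and 232 CPM in NS_PI, the highest of each group. The log2 fold changes of Creb3 were -0.14 ± 0.13 and -0.19 ± 0.13 (SE) without and with inhibitor. Creb3 overlaps Tln1 and Gba2 in the RefSeq table.

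Counted together, 1 of the 9 tested genes passed in S against NS (Eif2ak4, lower), beside 24.9% of all genes tested, of which 12.5% were higher and 12.4% lower. In S_PI against NS_PI 3 of 9 passed (Eif2ak3 and Atf6 higher, Eif2ak4 lower), beside 30.5% of all genes, with 15.2% higher and 15.3% lower. Both counts are near or below these shares. The median log2 fold change of the 9 genes was -0.12 in S against NS, where that of all genes was -0.01, and -0.11 in S_PI against NS_PI, where it was -0.02. None of the 9 had groups that did not overlap in CPM, against 7.34% of all genes in S against NS and 13.8% in S_PI against NS_PI. In the inhibitor comparisons the groups of all 9 overlapped too, against 0.709% of all genes in NS_PI against NS and 0.216% in S_PI against S.

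**Figure D3:**
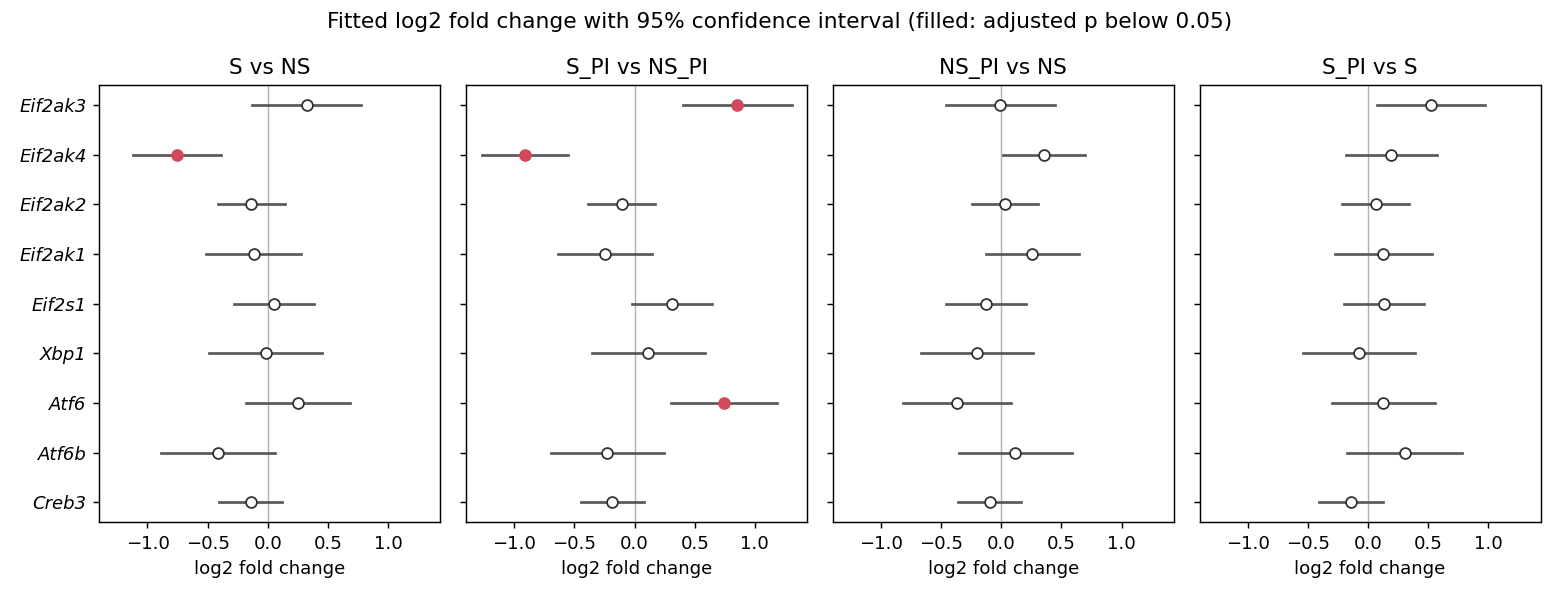
Fitted log2 fold changes of the 9 tested genes with 95% intervals (edgeR), for stretch without and with inhibitor and for the inhibitor without and with stretch; filled points passed the test at adjusted p below 0.05. Eif2ak4 lies at -0.75 in S against NS and at -0.91 in S_PI against NS_PI, Eif2ak3 at 0.85 and Atf6 at 0.74 in S_PI against NS_PI.

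The inhibitor comparisons ask whether GSK2606414 altered these messages at rest and under stretch. In NS_PI against NS 0 of the 9 genes passed, as did 0% of all genes tested with edgeR in the fit of all 4 groups. In that fit 455 genes had an unadjusted p below 0.05, and DESeq2 called 4. Fitted on only the NS_PI and NS libraries, edgeR called 27 genes, and none of the 9 passed in any alternative. Eif2ak4 had the smallest p of the 9, with 65.8 ± 17.7 CPM in NS_PI and 51.6 ± 14.9 CPM in NS (SD, n = 5 each), a log2 fold change of 0.35 ± 0.16 (SE, 95% interval 0.01 to 0.70, adjusted p = 0.8996, edgeR), higher in 4 of 5 animals. Eif2ak3, the gene of the kinase that is inhibited, had a log2 fold change of -0.01 ± 0.22 (SE, 95% interval -0.46 to 0.45).

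In S_PI against S 0 of the 9 genes passed and 0% of all genes, with 340 genes at an unadjusted p below 0.05 and 0 called by DESeq2. Eif2ak3 averaged 228 ± 79.2 CPM in S_PI and 159 ± 80.1 CPM in S (SD, n = 5 each) and was higher with inhibitor in 5 of 5 animals, where 7.8% of all genes kept 1 direction. The log2 fold change was 0.52 ± 0.22 (SE, 95% interval 0.07 to 0.97, adjusted p = 0.999, edgeR). The largest ratio, 1.72 on the log2 scale, came from animal 1, and the other 4 animals lay between 0.21 and 0.42. Without the S library of animal 1 the log2 fold change was 0.27.

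Whether stretch acted differently with inhibitor was tested as an interaction of stretch and inhibitor, in which the log2 fold change of S against NS is taken from that of S_PI against NS_PI. No gene of the 9 passed, and 0% of all genes did, with 345 genes at an unadjusted p below 0.05 and 0 called by DESeq2. For Eif2ak3 the difference was 0.53 ± 0.31 on the log2 scale (SE, 95% interval -0.11 to 1.17, adjusted p = 0.984, edgeR), positive in 5 of 5 animals, beside 9.57% of all genes with 1 direction in all 5, and it was 0.28 without the S library of animal 1. For Atf6 it was 0.50 ± 0.30 (-0.13 to 1.12, adjusted p = 0.984), positive in 3 of 5 animals, and for Eif2ak4 -0.16 ± 0.25 (-0.67 to 0.35). The calls of Eif2ak3 and Atf6 with inhibitor and their lack without it are therefore not shown to differ.

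**Figure D4:**
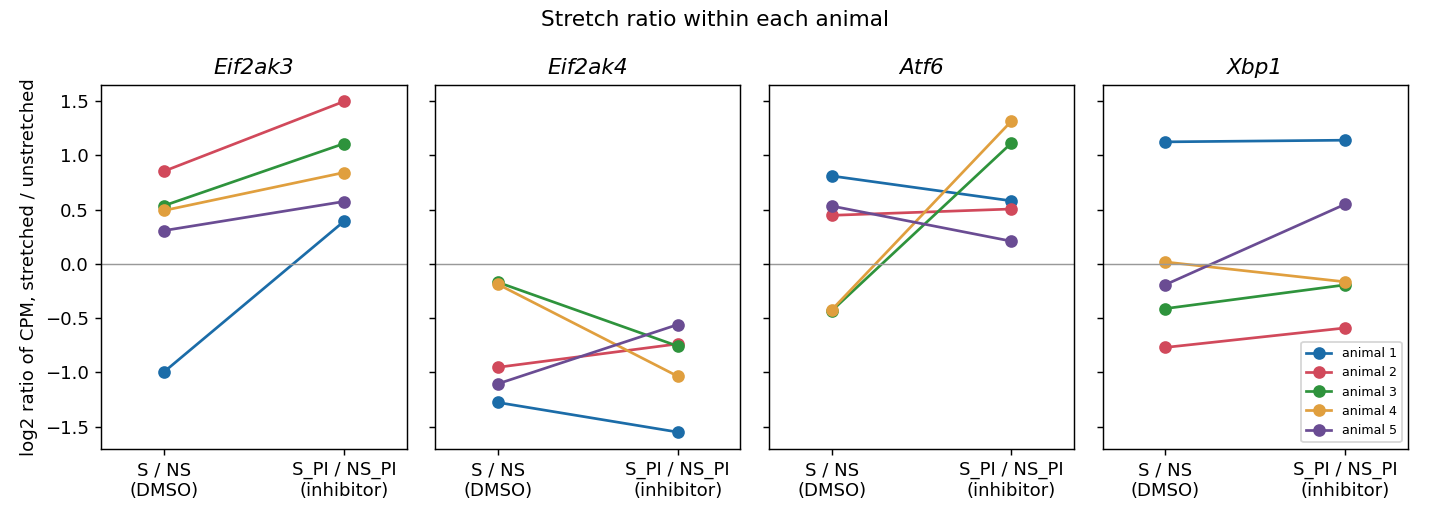
Log2 ratio of stretched to unstretched CPM in each animal, for Eif2ak3, Eif2ak4, Atf6 and Xbp1, without inhibitor (left) and with it (right); each point is 1 animal, and a line joins its values. Eif2ak4 lies below 0 in all 5 animals in both, and Eif2ak3 lies above 0 in all 5 with inhibitor and below 0 in animal 1 without it.

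Partners of the kinases were described from lists of genes chosen by their known function, and each count stands beside the shares of all genes given above. Of 13 genes for the partners and brakes of eIF2, 3 rose and 1 fell in S against NS, and 4 rose and 2 fell in S_PI against NS_PI, with medians of 0.15 and 0.06 on the log2 scale. Ppp1r15a, the GADD34 subunit that brings phosphatase to eIF2 alpha, averaged 273 ± 137 CPM in S and 64.4 ± 21.2 CPM in NS, and 282 ± 148 CPM in S_PI and 45.8 ± 5.44 CPM in NS_PI (SD, n = 5 each). Its log2 fold changes were 1.98 ± 0.25 (adjusted p = 1.91e-05, edgeR) and 2.50 ± 0.26 (adjusted p = 1.05e-06), higher in 5 of 5 animals each. Nck1, an adaptor that lowers eIF2 alpha phosphorylation, rose by 0.65 on the log2 scale in both comparisons. Ppp1cb, a catalytic subunit of the phosphatase, fell by 0.52 in S against NS and by 0.38 in S_PI against NS_PI. Eif2b5, a subunit of the exchange factor eIF2B, fell by 0.53 in S_PI against NS_PI and had -0.21 in S against NS, which did not pass. The call of Ppp1cb in S_PI against NS_PI was lost without animal 3 (-0.36), without animal 5 (-0.38) and without the block (-0.38).

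Of 7 tested activators and inhibitors of the kinases none passed in S against NS, while in S_PI against NS_PI 1 rose and 1 fell. These were Impact, an inhibitor of GCN2, at 0.58 ± 0.15 (SE, adjusted p = 0.00699, edgeR), and Prkra, an activator of PKR, at -0.40 ± 0.12 (adjusted p = 0.0183). Impact lost its call without animal 5 (0.44) and without the block (0.56), and Prkra was called in 6 of 12 alternatives, lost without animal 2 (-0.33), animal 4 (-0.39) or animal 5 (-0.34) among them. The interaction of Impact was 0.50 ± 0.22 on the log2 scale (adjusted p = 0.984). In the machinery of IRE1 and ATF6, 8 of 17 listed genes could be tested, and both Golgi proteases that cut ATF6, Mbtps1 at 2.52 CPM and Mbtps2 at 3.53 CPM, were below the filter. In S against NS 3 rose and none fell: Traf2, the adaptor that binds IRE1, at 1.08 ± 0.25, Creb3l1, a membrane-bound relative of ATF6, at 1.04 ± 0.32, and Nfyc, a subunit of the factor NF-Y that binds CCAAT boxes, at 0.66 ± 0.15 (SE). In S_PI against NS_PI Creb3l1, at 0.89 ± 0.31, and Nfyc, at 0.41 ± 0.15, rose, and Traf2 had 0.29 ± 0.24 (adjusted p = 0.383). Creb3l1 in S against NS was called in 9 of 13 alternatives and lost without the S library of animal 1 (0.61) and without animal 5 (1.09). In S_PI against NS_PI Creb3l1 was called in 6 of 12 alternatives, lost without animal 2 (0.92), animal 3 (0.93) or animal 5 (0.96) among them, and Nfyc in 2 of 12, with 0.37 to 0.47 when 1 animal was left out. Traf2 lost its call in S against NS without the block (1.09).

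Downstream, 24 of 29 listed targets of PERK and ATF4 were tested. In S against NS 8 rose and 1 fell, with a median log2 fold change of 0.42, and in S_PI against NS_PI 17 rose and none fell, with a median of 0.78. Atf4 averaged 2936 ± 768 CPM in S and 1492 ± 359 CPM in NS, and 2945 ± 619 CPM in S_PI and 1205 ± 203 CPM in NS_PI (SD, n = 5 each), log2 fold changes of 0.97 ± 0.15 and 1.26 ± 0.15 (SE). Atf3, a stress-induced factor, rose by 0.78 in S against NS and 1.34 in S_PI against NS_PI, and Vegfa, a growth factor gene that is also on the list of type I markers, by 0.59 and 1.15. Shmt2, a mitochondrial enzyme of serine metabolism, rose by 1.17 in S_PI against NS_PI and had 0.44 in S against NS (adjusted p = 0.0605, edgeR). In NS_PI against NS none of the 24 passed, yet 21 had a log2 fold change below 0 and 13 an unadjusted p below 0.05, with a median of -0.53, where that of all genes was 0.00. Fitted on only the NS_PI and NS libraries, 6 of the 24 fell, among 27 genes called in all, and 1 fell with DESeq2, without the filter or without animal 1. In S_PI against S none passed, and the median was -0.12. For the interaction of stretch and inhibitor the median of the 24 was 0.33, with 6 at an unadjusted p below 0.05 (edgeR), and none passed. The larger count of rises with inhibitor is therefore not shown to be a different stretch effect. Without the animal block 2 rose and 1 fell in S against NS, and 10 rose and none fell in S_PI against NS_PI, and Atf3 (0.85) and Vegfa (0.53) lost their calls in S against NS.

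The targets of ATF6 and XBP1 include chaperones and the machinery of degradation. Of 22 tested genes 2 rose and none fell in S against NS, with a median of 0.02, and 4 rose and 2 fell in S_PI against NS_PI, with a median of -0.09. Herpud1, part of the machinery that removes misfolded proteins, averaged 1013 ± 65.8 CPM in S and 436 ± 171 CPM in NS, and 966 ± 176 CPM in S_PI and 436 ± 60.0 CPM in NS_PI (SD, n = 5 each). It rose by 1.302 on the log2 scale in S against NS and by 1.14 in S_PI against NS_PI. Dnajb9, a co-chaperone of the lumen, rose by 0.54 in S against NS and 0.90 in S_PI against NS_PI. Derl3 and Sdf2l1, which serve degradation and folding in the reticulum, fell by 1.80 and by 0.79 in S_PI against NS_PI, and had -0.97 (adjusted p = 0.0700, edgeR) and -0.34 (adjusted p = 0.245) in S against NS. Of the kinases reported as other targets of GSK2606414, Kit was below the filter, and Ripk1, a kinase of cell death signalling, rose by 0.58 in S against NS and by 0.75 in S_PI against NS_PI. In S against NS the calls were lost without the block for Dnajb9 (0.53) and Ripk1 (0.59), without animal 3 for Dnajb9 (0.49) and Ripk1 (0.53), and without animal 5 for Dnajb9 (0.50). In S_PI against NS_PI that of Sdf2l1 was lost without animal 3 (-0.61) and without the block (-0.75).

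Markers of several cell types moved with stretch beside these genes, and in pooled monolayers fewer cells of a type and less RNA per cell cannot be told apart. Of 10 tested type I markers 1 rose and 4 fell in S against NS, and 2 rose and 7 fell in S_PI against NS_PI; Vegfa, counted above as a target of PERK and ATF4, was the 1 that rose in S against NS and is among the 2. Without animal 5 the falls were 2 in S against NS and 3 in S_PI against NS_PI, and without the S library of animal 1 they were 2 in S against NS. Of 8 type II markers none passed in either comparison. The type I list summed to 1295 to 5738 CPM in S and 1744 to 6189 CPM in NS. With inhibitor it summed to 1297 to 5713 CPM in S_PI and 1852 to 6646 CPM in NS_PI. The type II list summed to 292 to 743 CPM in S and 311 to 759 CPM in NS. Median sums in S were 3280 CPM for type I and 9134 CPM for macrophage and leukocyte markers, and in NS 4724 and 7894 CPM. These sums do not give cell numbers. Of 11 macrophage and leukocyte markers 5 rose and none fell in S against NS, and 6 rose and none fell in S_PI against NS_PI. Their summed level was 2268 to 15369 CPM in S and 1792 to 11407 CPM in NS, and 2948 to 14385 CPM in S_PI and 1798 to 10768 CPM in NS_PI, with Marco, a marker of alveolar macrophages, at 0 in 19 of 20 libraries. Of 7 fibroblast and smooth muscle markers 1 rose in S against NS, and 3 rose and 1 fell in S_PI against NS_PI, with summed levels of 3995 to 12504 CPM in S, 3273 to 7542 CPM in NS, 4027 to 14357 CPM in S_PI and 3266 to 10699 CPM in NS_PI. Endothelial markers summed to 0 to 4.07 CPM, with Cdh5 at 0 in all 20 libraries. Of 2 tested airway markers none passed in either comparison, with summed levels of the list of 273 to 2109 CPM in S, 567 to 2273 CPM in NS, 209 to 1849 CPM in S_PI and 623 to 3413 CPM in NS_PI. Of 2 tested mesothelial markers 1 rose in S against NS and none passed in S_PI against NS_PI, with summed levels of 142 to 881 CPM in S, 124 to 250.1 CPM in NS, 148 to 477 CPM in S_PI and 129.6 to 289.7 CPM in NS_PI. Without the S library of animal 1 none of the mesothelial markers rose and 1 fell in S against NS, and in the fit of only the compared groups none passed. Single genes made up much of the summed levels. Over the 20 libraries Lyz2 averaged 4919.5 CPM, Col1a1 5490 CPM, Acta2 1062 CPM and Scgb1a1 1467 CPM. The other airway markers averaged 0.023 to 7.54 CPM. Of the fibroblast list, Col1a2, Pdgfra, Pdgfrb, Dcn and Lum averaged 1.63 to 13.5 CPM. Without the animal block no marker of the type I, macrophage and leukocyte, fibroblast and smooth muscle or mesothelial lists passed in S against NS, and in S_PI against NS_PI 1 type I marker rose and no other passed. The part of these cell types in the changes of Eif2ak3, Eif2ak4 and Atf6 was not tested.

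The genes with patterns most like the 3 that passed were taken by Pearson's r of log2 CPM, less the mean of each animal, over 20 libraries, which share animals, groups and scaling. For Eif2ak3 they were Csnk2a2 (0.943), Alox5ap (0.938) and Fxr2 (0.936). For Eif2ak4 they were Tmem50b (0.944), Idh2 (0.933) and Scx (0.930), and for Atf6 they were Ncl (0.869), Anp32b (0.858) and Camsap2 (0.851). Among the 9 genes themselves, r was -0.78 between Eif2ak4 and Atf6, -0.72 between Eif2ak1 and Eif2s1, -0.68 between Xbp1 and Atf6b, and 0.57 between Eif2ak4 and Atf6b. These pairs had the largest r in size among all pairs of the 9. The S library of animal 1 had 444 CPM of Xbp1 and 38.2 CPM of Atf6b, and r without that library was not computed.

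The authors' deposited table, from DESeq2 with control for rat, does not state its groups or direction. Its log2 values ran opposite to those of S against NS over 8176 genes (r = -0.989), a positive value thus standing for lower in S. In the authors' deposited table Eif2ak4 (ENSRNOG00000006027) had a log2 fold change of 0.64 ± 0.24 (SE) with an adjusted p of 0.0553, just outside the threshold of 0.05, where the fit above gave 0.00415 with the opposite sign. In the authors' deposited table Eif2ak3 (ENSRNOG00000006069) had -0.27 with an adjusted p of 0.506 and Atf6b (ENSRNOG00000000431) 0.40 with an adjusted p of 0.261, and Ern1 had no adjusted p.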

How the data were processed

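RNA of 20 libraries was measured by QuantSeq, 5 libraries in each of 4 groups, with groups and animals taken from the sample titles. Per the submitters' processing notes, the authors used STAR, HTSeq and DESeq2 and the rat build rn6. Not given in the sources used here: versions, gene annotation and strand setting. Raw counts per gene symbol were deposited by the authors. Their DESeq2 output, also deposited, gives per the file headers the normalized mean (a signal), log2 fold change and its error, the test statistic (a score), the p-value and its adjusted form. The 5 HTSeq summary entries were left out of library sizes. They made up 58.8 to 75.0% of all records, with 16.2 to 24.5% outside genes and 35.5 to 57.7% not aligned uniquely.

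From the counts, genes were filtered with filterByExpr, scaled by TMM and tested with the quasi-likelihood F test of edgeR 4.0.16 (limma 3.58.1, R 4.3.3), with group and animal as terms and 12 residual degrees of freedom over the 20 libraries. No term let the stretch effect differ between animals, so such differences sit in the shared spread, and p-values for stretch may be too small. The animal was a block because the labels tie each library to 1 animal and the deposited table is named as controlling for rat. Same-numbered libraries correlated at 0.316 to 0.788 in their deviations, and 20 of 20 correlated best with their own number. P-values were adjusted over 8320 genes by Benjamini-Hochberg and called below 0.05. Floors cover counting error only, since the labels name no molecular identifiers. The code was tested on simulated data. Alternatives were no block, other scalings, no filter, DESeq2 1.42.0, only the compared groups, each animal left out and, chosen after seeing the data, the S library of animal 1 left out.

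All 10 genes are named with their levels or counts in the groups. For the inhibitor comparisons and the interaction only some of the tested genes are named. From each of 6 pathway lists up to 4 genes with the smallest adjusted p in any of the 4 group comparisons are named among those called, with the 3 genes nearest in pattern to Eif2ak3, Eif2ak4 and Atf6, and others (the proteases, Kit and single markers) were chosen after their values were seen. The genes and all lists were chosen with earlier results of these data known. Promoter windows came from RefSeq (GRCr8), where 8 of 10 genes matched. The labels name no batch.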

Additional observations from a re-analysis of the deposited data

Results flagged for a closer look

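In each group of 5 libraries, a value was marked when its gap to the nearest other value exceeded the 95% critical share of the group's range. With independent, normally spread values chance does this in about 1 in 20 groups. The groups here share animals, and counts as low as those of Ern1 are not spread in that way. Of 40 groups, 10 genes in 4 groups each, 5 were marked. In 3 of them the library was S of animal 1: Xbp1 had 444 CPM there, against 167 to 242 CPM in the other S libraries, Atf6 had 55.8 CPM, against 17.5 to 25.1 CPM, and Creb3 had 236 CPM, against 119 to 130 CPM. Creb3 was also far above the rest in S_PI of animal 1, at 215 CPM against 97.6 to 129 CPM. Ern1 had 1.25 CPM in NS_PI of animal 2, which is 3 counts, while the other 4 NS_PI libraries had 0.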

How the results depend on the processing

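Of 558 values of the 9 genes under alternatives, 525 kept their direction and side of the threshold, 27 changed sign, 4 lost a call and 2 gained one; none of the 27 passed the test in either fit. Without the replicate block 818 genes were called in S against NS (0 of the 9) and 1229 in S_PI against NS_PI (1 of the 9). Fitted on only the compared groups, S against NS gave 1048 and NS_PI against NS 27, and NS_PI against NS gave 4 without the filter and 4 with DESeq2. With animals left out in turn, NS_PI against NS gave 0 to 3 genes, and 1 to 2 of the 9 passed in S against NS, with 2 (Eif2ak4 and Eif2ak3) both without animal 1 and without its S library. Adjusted p ranged from 0.00123 to 0.0946 for Eif2ak4 in S against NS, from 4.26e-05 to 0.0521 for Eif2ak3 and from 0.00742 to 0.153 for Atf6 in S_PI against NS_PI. The cause of these changes was not tested.

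After the change of sign the log2 fold changes lay between -0.12 and 0.24. The lowest was Eif2s1 in S against NS without animal 2. The highest was Xbp1 in S_PI against S without the S library of animal 1. In S against NS, Xbp1 had 0.040 without the replicate block, 0.0055 with DESeq2 size factors and 0.0037 with DESeq2, and Eif2s1 had -0.0033 with upper-quartile scaling and -0.055 with library size alone. In NS_PI against NS, Eif2ak3 had 0.011 with upper-quartile scaling and 0.0022 without the filter. With libraries left out, the ranges were -0.33 to 0.19 for Xbp1, -0.24 to 0.055 for Eif2ak1 and -0.12 to 0.19 for Eif2s1 in S against NS; -0.12 to 0.29 for Xbp1 in S_PI against NS_PI; -0.12 to 0.075 for Eif2ak3, -0.046 to 0.14 for Eif2ak2 and -0.069 to 0.21 for Atf6b in NS_PI against NS; -0.041 to 0.27 for Eif2s1, -0.16 to 0.24 for Xbp1 and -0.045 to 0.35 for Atf6 in S_PI against S. For the interaction they were -0.29 to 0.13 for Eif2ak1, -0.11 to 0.059 for Eif2ak2, -0.036 to 0.44 for Xbp1 and -0.031 to 0.31 for Atf6b. The counts of Ern1 stayed at 4 or fewer per library, and why they were this low was not tested.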
